A study of Mus musculus with 6 samples.

Results

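The genes described here were 3 connexins, Gja1, Gja5 and Gjc1, and 3 sodium channel genes, Scn7a, Scn10a and Scn4b, 6 of the 54093 genes listed for mouse right atrium (RA). They were chosen by name and not by a cut on measured values, but with earlier results of these data known. RNA-seq was run on the RA of wild-type C57BL/6 mice at postnatal day 21, with 3 libraries from sham-operated pups and 3 from pups with volume overload (VO), made by an aortocaval fistula at postnatal day 7. Pups of both sexes entered the study, the labels give no sex for a library, and it is not stated whether a library held the RA of 1 animal or of several, so the p-values measure the spread between these libraries. The comparison asks whether preload on the RA between these ages goes with other levels of these connexin and sodium channel genes.

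Connexins are membrane proteins that assemble into hemichannels, and hemichannels of adjoining cells dock to form gap junctions, through which ions and small molecules pass directly. In the heart Gja1 encodes connexin 43, the main connexin of working muscle. Gja5 encodes connexin 40, found in atrial muscle, the fast conduction system and arterial endothelium, and Gjc1 encodes connexin 45, the connexin of the nodes and of the early heart. The upstroke of the atrial action potential is carried by voltage-gated sodium channels, which consist of a pore-forming alpha subunit and auxiliary beta subunits. Scn7a encodes Nax, an atypical alpha subunit known for sensing extracellular sodium, Scn10a encodes Nav1.8, first known from sensory neurons, and Scn4b encodes the beta 4 subunit.

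On GRCm38, Gja1 lies on chromosome 10 (56377330 to 56402513, plus strand), Gja5 on chromosome 3 (96904693 to 97077416, plus) and Gjc1 on chromosome 11 (102799579 to 102819700, minus). Scn7a lies on chromosome 2 (66673425 to 66784914, minus). Scn10a (119608456 to 119719322, minus) and Scn4b (45138395 to 45154152, plus) both lie on chromosome 9. All 3 sodium channel loci hold another sodium channel gene close by: Scn2b is 8325 bases from Scn4b, Scn9a is 38463 bases from Scn7a, and Scn11a is 34437 bases from Scn10a. For Gja5, 165 exonic bases are shared with Gpr89 on the opposite strand. The antisense genes 9230114J08Rik and 4930573H18Rik also overlap Gja5 on that strand, and any exonic bases shared with them were not counted. It is not stated whether reads were counted by strand. Reads from the 165 bases, or from other shared bases, can therefore not be assigned to either gene.

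The start regions of Gja1, the member with the highest level, and Scn7a, the tested member with the smallest p, are shown to give the sequence context of the transcripts measured. Both are from RefSeq (GRCm38.p6), run 5′ to 3′ on the strand of the gene and span 300 bases, 250 before the annotated start and 50 after it. Capitals mark a GATA site or an AP-1 site.
Gja1, chr10:56377050-56377349, plus strand: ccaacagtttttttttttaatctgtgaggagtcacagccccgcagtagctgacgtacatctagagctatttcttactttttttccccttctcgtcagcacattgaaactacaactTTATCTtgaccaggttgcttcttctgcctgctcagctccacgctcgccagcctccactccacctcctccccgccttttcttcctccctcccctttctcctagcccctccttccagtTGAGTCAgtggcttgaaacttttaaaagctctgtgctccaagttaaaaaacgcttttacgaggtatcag
Scn7a, chr2:66784861-66785160, minus strand: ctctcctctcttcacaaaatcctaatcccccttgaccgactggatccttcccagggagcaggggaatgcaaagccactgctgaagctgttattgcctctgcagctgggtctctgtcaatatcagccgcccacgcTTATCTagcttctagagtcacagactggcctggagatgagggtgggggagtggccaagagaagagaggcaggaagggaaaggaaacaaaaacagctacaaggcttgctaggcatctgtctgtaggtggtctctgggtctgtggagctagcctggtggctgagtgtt

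The 5 motifs below, chosen after the values were known, were searched on both strands of the start regions, with no overlap between the matches found. The GATA site (AGATAA) was found at position 116 of Gja1 and position 135 of Scn7a, both times as its reverse complement, and is present in 11.2% of 32851 start regions. The AP-1 site (TGANTCA) was found at position 232 of Gja1 and is present in 7.81% of start regions. The NKX2-5 element (CAAGTG), at position 281 of Scn10a, is present in 13.6%. The T-box motif (TCACACC), present in 3.98%, and the TATA box (TATAAA), present in 13.6%, had no match in the start regions of the 5 members searched, and none of the 5 motifs matched in Gja5 or Scn4b. The start region of Gjc1 was not searched. A match is a run of letters in this window and not a measured binding site.

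The levels are in FPKM, fragments per gene length and a library size. Dividing them by what 1 fragment is worth gave between 15963082 and 17237903 fragments on genes per library. The library size in the FPKM was not this total: it was 15557402 against 16494342 fragments in sham 1 and 18144117 against 16852482 in VO 1. A gene was tested if its mean FPKM over the 6 libraries was at least 1, which 12627 genes and 5 of the 6 members passed. Scn4b did not. Over all tested genes the contrast held few calls: 1 gene (0.00792%), lower in VO, had an adjusted p under 0.05 by limma, and 12.0% had an unadjusted p under 0.05, of which 3.89% of tested genes were higher in VO and 8.08% lower. None of the 5 tested members had an unadjusted or an adjusted p under 0.05.

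Gja1 was the most abundant of the 6 in both groups. It measured 38.8, 40.6 and 45.1 FPKM in sham 1 to 3 and 47.7, 35.4 and 40.8 FPKM in VO 1 to 3. The highest and the lowest library were both from VO, and the groups overlapped. The means were 41.5 ± 3.29 FPKM in sham and 41.3 ± 6.17 FPKM in VO (SD, n = 3 each), a log2 fold change of -0.01 (SE 0.138, 95% interval -0.34 to 0.31, limma adjusted p = 0.970). As a change of the level, the interval runs from -20.9% to 24.1%. With 5925 to 8886 fragments per library, counting error was small beside the spread between libraries.

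Gja5 measured 12.7, 16.8 and 15.2 FPKM in sham 1 to 3 and 18.0, 16.2 and 11.9 FPKM in VO 1 to 3. VO again held both the highest and the lowest library. The log2 fold change was 0.03 (SE 0.181, 95% interval -0.40 to 0.46, limma adjusted p = 0.953), from 14.9 ± 2.04 FPKM in sham and 15.3 ± 3.13 FPKM in VO (SD, n = 3 each). For Gja1 and Gja5 the sign of the difference was not stable: without VO 1 the log2 fold changes were -0.12 and -0.10, and without VO 2 they were 0.09 and -0.02.

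Gjc1, the connexin of nodal tissue, measured 4.19, 5.28 and 5.16 FPKM in sham 1 to 3 and 5.35, 6.23 and 5.36 FPKM in VO 1 to 3. All 3 VO libraries were above all 3 sham libraries, but by a narrow margin: the highest sham library had 455 fragments (95% Poisson interval 414 to 499), or 4.80 to 5.78 FPKM, and VO 1 had 486 (444 to 531), or 4.89 to 5.85 FPKM. These intervals cover counting error only. The log2 fold change was 0.21 (SE 0.132, 95% interval -0.10 to 0.52, limma adjusted p = 0.491).

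**Figure D1:**
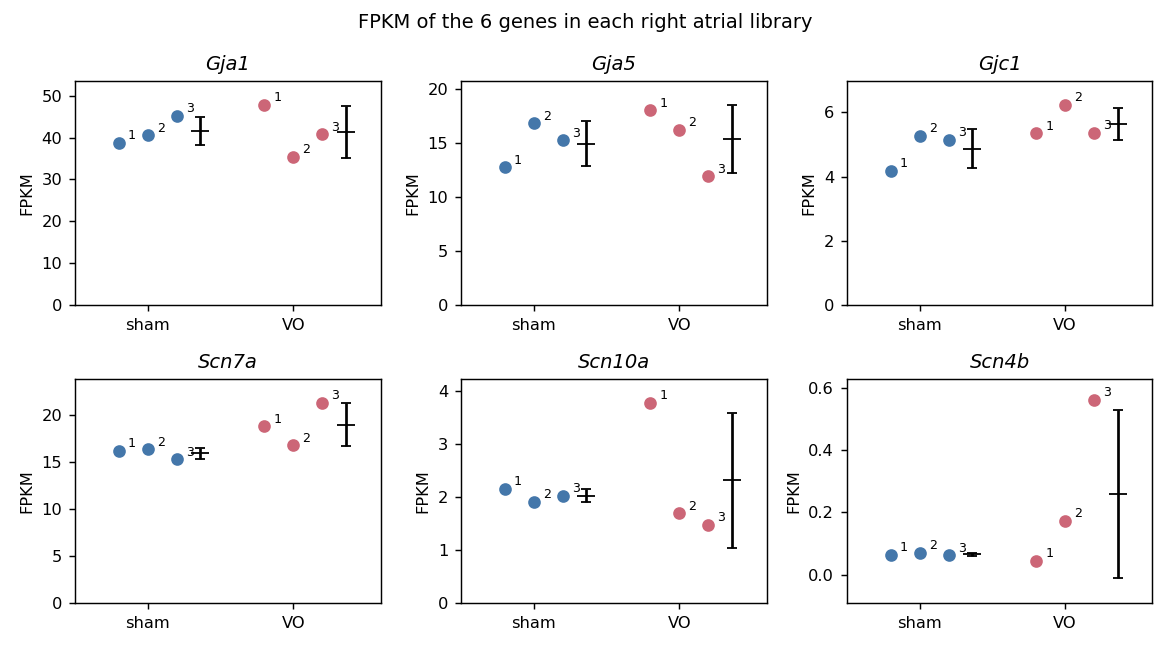
FPKM of the 6 genes in each library. Points are libraries, numbered by replicate, with sham in blue and VO in red, and the bar beside them is the mean ± SD (n = 3). Gja1 and Gja5 overlapped between groups, the 3 VO libraries of Gjc1 and Scn7a lay above the 3 sham libraries, and 1 VO library each stood apart for Scn10a (VO 1) and Scn4b (VO 3).

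Among the sodium channel genes, Scn7a measured 16.2, 16.3 and 15.3 FPKM in sham 1 to 3 and 18.8, 16.8 and 21.3 FPKM in VO 1 to 3. The groups did not overlap, though VO 2 lay close to the highest sham library. The means were 15.9 ± 0.575 FPKM in sham and 18.9 ± 2.27 FPKM in VO (SD, n = 3 each), a log2 fold change of 0.24 (SE 0.116, 95% interval -0.03 to 0.52, limma adjusted p = 0.427). The adjusted p ranged from 0.291 to 0.705 over 20 alternative settings. Groups that do not overlap were found in 21.2% of all tested genes, 8.25% with VO higher and 12.9% with VO lower, and in 2 of the 5 tested members, Gjc1 and Scn7a, both with VO higher. An exact permutation test of 3 against 3 libraries cannot go below p = 0.1, the value both genes had.

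Scn10a measured 2.15, 1.91 and 2.03 FPKM in sham 1 to 3, a narrow range, and 3.78, 1.69 and 1.47 FPKM in VO 1 to 3. VO 1 was above every sham library and the other 2 VO libraries were below every one. The corresponding fragments were 547 in VO 1, 220 in VO 2 and 193 in VO 3, against 262 to 267 in sham, so the spread within VO went past counting error (95% Poisson interval 502 to 595 in VO 1 and 167 to 222 in VO 3). The log2 fold change was 0.06 (SE 0.337, 95% interval -0.73 to 0.86, limma adjusted p = 0.945), and it was -0.34 without VO 1.

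Scn4b was close to the limit of detection. It measured 0.065, 0.070 and 0.062 FPKM in sham 1 to 3, from 5, 6 and 5 fragments, and 0.044, 0.172 and 0.561 FPKM in VO 1 to 3, from 4, 14 and 46 fragments. VO 3 stood apart from the other libraries, with a 95% Poisson interval of 33.7 to 61.4 fragments against 7.65 to 23.5 in VO 2, while VO 1 had the lowest level of all 6. The difference on the log2(FPKM + 0.1) scale was 0.84 with all libraries, 0.26 without VO 3 and 1.36 without VO 1, and the exact permutation p was 0.4. In fits with a lower filter that let the gene in, its limma adjusted p was 0.636 (mean FPKM of at least 0.1) and 0.703 (no filter).

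**Figure D2:**
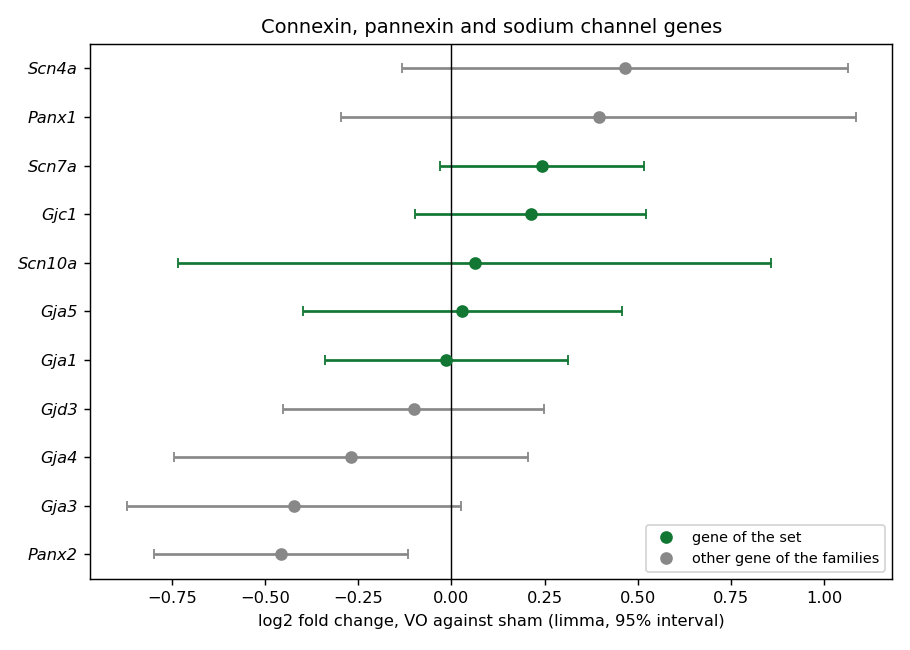
Log2 fold change of VO against sham, with its 95% interval from limma, for the 11 tested genes reported of the connexin, pannexin and sodium channel families. Green marks the genes described here and grey the other genes of the families. All intervals but that of Panx2 include 0.

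Ordered by FPKM, Gja1 came first in both groups, followed by Scn7a and Gja5, Gjc1, Scn10a and Scn4b. Scn7a and Gja5 were not separated in either group, and each of the other neighbours in that order was separated in every library. In sham, 92.0% of tested genes had a lower level than Gja1, 77.7% a lower one than Scn7a, 76.2% than Gja5, 42.9% than Gjc1 and 17.4% than Scn10a. These positions depend on the length by which fragments are divided. The table divides by the joined exons of all isoforms, 10257 bases for Gja1, where the longest coding transcript has 3182 bases, 5746 against 3668 bases for Gja5 and 5003 against 2314 bases for Gjc1. For Scn10a the lengths were 7966 and 6692 bases, and for Scn7a (7338 bases) and Scn4b (4982 bases) both lengths are equal. Divided by the longest coding transcript, a scale added after the values were seen, the mean sham levels were 134 for Gja1, 23.4 for Gja5, 15.9 for Scn7a, 10.5 for Gjc1, 2.42 for Scn10a and 0.065 for Scn4b. On this scale Gja5 was above Scn7a in every sham library, and the pair overlapped in VO. The ratio of VO to sham for a gene is the same on both scales.

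The shares of the 6 most abundant connexins all overlapped between groups. Over the 18 connexin genes reported, the summed level was 90.3 ± 1.82 FPKM in sham and 87.3 ± 6.79 FPKM in VO (SD, n = 3 each, exact permutation p = 0.5). Gja1 contributed 45.9 ± 2.76% in sham and 47.3 ± 5.06% in VO (exact permutation p = 0.8), Gja5 16.5 ± 2.08% and 17.5 ± 2.52% (p = 0.5), and Gjc1 5.39 ± 0.577% and 6.50 ± 0.820% (p = 0.2), with n = 3 in each group. The remainder came mostly from Gja3 (connexin 46, known from the lens), at 13.7 ± 0.966% in sham and 10.9 ± 3.34% in VO, Gja4 (connexin 37, of arterial endothelium), at 11.1 ± 3.64% and 9.27 ± 0.705%, and Gjd3 (connexin 30.2, of the atrioventricular node), at 6.69 ± 0.577% and 6.51 ± 1.19%. Per longest coding transcript the share of Gja1 was 67.6 ± 2.04% in sham and 68.1 ± 4.49% in VO.

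The level of Gja5 relative to Gja1, a ratio often read in atrial muscle because both proteins share gap junctions there, was 0.328, 0.414 and 0.337 in sham 1 to 3 and 0.376, 0.456 and 0.291 in VO 1 to 3. The 3 VO values spanned the sham range on both sides (exact permutation p = 1.0). Of the shares of the 18 connexins, 1 reached the smallest p of 0.1, that of the low-abundance gene Gjb5, and none of the 4 ratios computed between pairs of genes did. A design of 3 against 3 libraries cannot pass 0.05 in such a test.

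**Figure D3:**
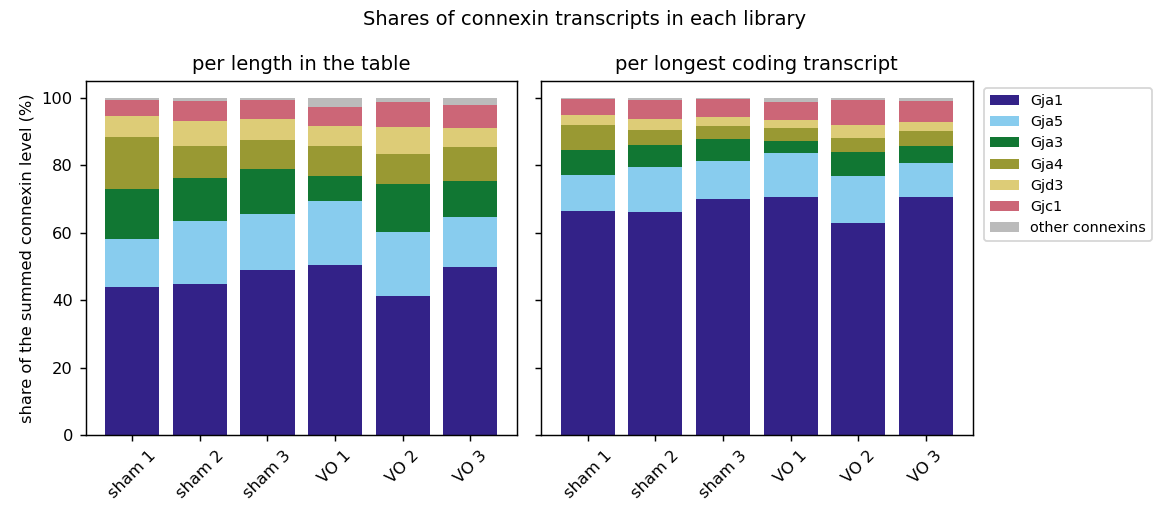
Share of each connexin in the summed connexin level of each library, in percent, per gene length of the table (left) and per longest coding transcript (right). Colours stand for genes and grey for the other 12 connexins reported together. Gja1 made up 45.9% of the level in sham and 47.3% in VO on the left, and 67.6% and 68.1% on the right.

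Of the other connexin and pannexin genes reported, 5 of 18 had a mean of at least 1 FPKM. Of these 5, 1 had an unadjusted p under 0.05, against 12.0% of all tested genes. That gene was Panx2, which encodes a pannexin, a channel protein related in form to connexins. It measured 4.14, 4.17 and 4.18 FPKM in sham 1 to 3 and 2.48, 3.41 and 3.21 FPKM in VO 1 to 3. The log2 fold change was -0.46 (SE 0.144, limma adjusted p = 0.404), and the groups did not overlap. Gja3 measured 13.0, 11.7 and 12.3 FPKM in sham and 7.22, 12.2 and 8.70 FPKM in VO, with VO 2 inside the sham range (log2 fold change -0.42, limma adjusted p = 0.417). Its unadjusted limma p was 0.061 with all libraries, 0.003 without VO 2 and 0.091 to 0.167 with any other library left out. Gja4 (log2 fold change -0.27), Gjd3 (-0.10) and Panx1 (0.39), the last an ATP-release channel, had adjusted p-values from 0.548 to 0.753 by limma. The median log2 fold change of the 5 was -0.27, against -0.01 for all tested genes. It ranged from -0.41 to -0.14 with 1 sham library left out.

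Of the other sodium channel genes reported, 1 of 9 had a mean of at least 1 FPKM, Scn4a, which encodes Nav1.4 of skeletal muscle. It measured 1.28, 2.30 and 2.12 FPKM in sham 1 to 3 and 2.41, 3.16 and 2.26 FPKM in VO 1 to 3. Sham 1 was the lowest library and the groups overlapped (log2 fold change 0.47, SE 0.253, limma adjusted p = 0.456). Of the neighbours named above, all had little signal: Scn2b 0.037 to 0.418 FPKM, Scn11a 0 to 0.062 FPKM and Scn9a above 0 in VO 3 alone, at 0.186 FPKM.

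The library in which Scn4b was highest, VO 3, also held the highest level of 5 of 7 Schwann cell markers and 7 of 8 autonomic neuron markers. The exceptions were Kcna1, Foxd3 and Dbh, and Dbh was at 8.52 FPKM in VO 3 against 8.94 to 9.74 FPKM in sham. The summed level of 7 Schwann cell markers was 13.5 to 18.2 FPKM in sham, 9.90 and 12.5 FPKM in VO 1 and VO 2 and 26.9 FPKM in VO 3, where S100b, a gene of a glial calcium-binding protein, was at 9.22 FPKM against 0.665 to 1.24 FPKM elsewhere. Without S100b, a sum added after the values were seen, the Schwann cell level in VO 3 was 17.7 FPKM, against 12.3 to 17.1 FPKM in sham. The list's only gene with an unadjusted p under 0.05, Kcna1, a potassium channel gene, was lower in VO (log2 fold change -1.09, limma adjusted p = 0.414). The sum of 8 autonomic neuron markers was 15.5 to 16.4 FPKM in sham, 11.7 and 17.0 FPKM in VO 1 and VO 2 and 32.4 FPKM in VO 3. Snap25, a synaptic gene, and Chat, the gene of acetylcholine synthesis, were listed at 0 in the other 5 libraries and at 1.90 and 0.103 FPKM in VO 3. Of the other beta subunit genes, Scn2b was at 0.418 FPKM in VO 3 against 0.037 to 0.130 FPKM elsewhere, and Scn3b, named after its values were seen, at 1.14 against 0.191 to 0.555 FPKM. The part of nerve tissue in the Scn4b values was not tested.

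The library in which Scn10a was highest, VO 1, held the highest sum of 8 leukocyte markers, 670 FPKM against 160 to 187 FPKM in sham and 184 and 227 FPKM in VO 2 and VO 3. All 8 were highest in VO 1, and 1 of them, the macrophage marker Adgre1, was at 62.1 FPKM there and at 9.76 to 14.6 FPKM elsewhere. The same library had the highest Gja1 and Gja5 and the lowest sum of 10 atrial cardiomyocyte markers, 7382 FPKM against 15320 to 21860 FPKM in sham. Gjb5, a low-abundance connexin gene named after its values were seen, was also highest in VO 1, at 1.86 FPKM against 0.214 to 0.303 FPKM in sham and 0.642 and 0.389 FPKM in VO 2 and VO 3. The leukocyte difference was not confined to VO 1, as all 6 tested markers had higher fitted values in VO. Their median was 0.80 on the log2 scale, against -0.01 for all tested genes. Of the 6, 4 did not overlap between groups, against 8.25% of all tested genes with VO higher. Only Cd68 (log2 fold change 0.75) had an unadjusted limma p under 0.05, against 3.89% of all tested genes higher, and none passed after adjustment. Without VO 1 the log2 fold change of Cd68 was 0.42. Unadjusted calls among the 6 numbered 2 without VO 1, 5 without VO 2 and 0 without VO 3 or any 1 sham library. The summed level in VO 2 lay inside the sham range. The part of cell composition in the values of this paragraph was not tested.

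**Figure D4:**
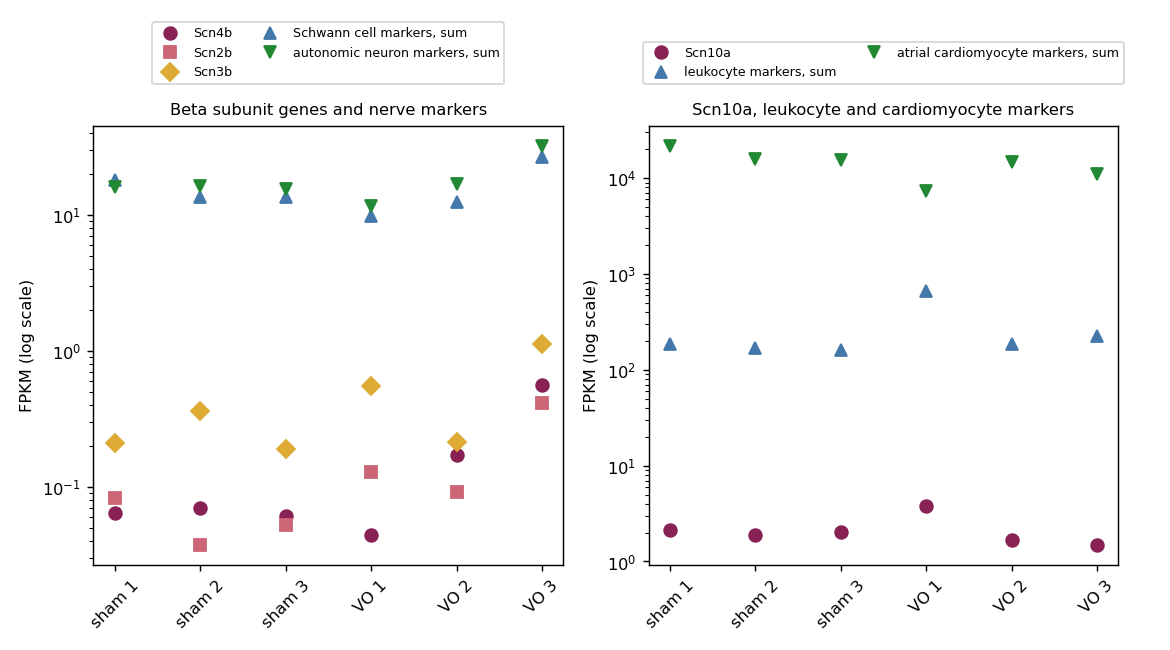
FPKM per library on a log scale. The left panel shows 3 beta subunit genes with the summed Schwann cell and autonomic neuron markers, all highest in VO 3, and the right panel shows Scn10a with the summed leukocyte markers, both highest in VO 1, and the summed atrial cardiomyocyte markers, lowest in VO 1.

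Detection alone does not tell atrium from ventricle, as the ventricular markers summed to 143 to 327 FPKM in sham. All 10 atrial cardiomyocyte markers were detected in every library, but their level differed between groups. All 10 had lower fitted values in VO, 4 with an unadjusted p under 0.05 and none with an adjusted p under 0.05, and the median log2 fold change was -0.47. Over all tested genes 8.08% were lower at an unadjusted p under 0.05. The study had named Tnnt2, Actn2 and Myh6 of this list on these samples, so they are not independent evidence of a direction. Leaving out 1 library in turn gave 0 (without sham 3) to 7 (without VO 2) such markers, and quantile normalization, no filter and the replicate block each gave 1. The mean log2 level of the 10 was 9.43 ± 0.139 in sham and 8.89 ± 0.400 in VO (SD, n = 3 each, exact permutation p = 0.1), a difference of -0.54. In bulk tissue fewer cells of a type and less RNA per cell cannot be told apart. Set against this mean, the log2 level of Gja1 was 0.53 higher in VO, that of Gja5 0.57, Gjc1 0.76, Scn7a 0.79, Scn10a 0.61 and Scn4b 1.39. Gjc1, Scn7a and Scn4b did not overlap between groups on this scale (exact permutation p = 0.1), and 43.0% of all tested genes did the same in this direction, so these values do not set the members apart. Without VO 1 the relative difference of Scn10a was -0.0036.

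Other marker lists were compared by their summed levels. Fibroblast markers summed to 1029 to 1054 FPKM in sham and 1050 to 1459 FPKM in VO, and sinoatrial node markers to 17.5 to 37.3 FPKM in sham and 18.2 to 35.8 FPKM in VO. The sums for vascular endothelium were 244 to 262 and 256 to 268 FPKM, for arterial endothelium 75.6 to 83.0 and 71.0 to 78.6 FPKM, for smooth muscle 189 to 250.0 and 97.9 to 150.2 FPKM, for ventricular muscle 143 to 327 and 125 to 168 FPKM, and for skeletal muscle 151 to 208 and 58.4 to 107 FPKM. The sums for smooth and skeletal muscle were lower in all 3 VO libraries than in all 3 sham libraries. They rested mostly on Acta2 (136 to 201 FPKM in sham and 54.1 to 98.9 FPKM in VO) and Ckm (143 to 199 and 56.4 to 100.8 FPKM), and 3 of 7 tested smooth muscle markers had higher fitted values in VO, with Notch3 (log2 fold change 0.50, limma adjusted p = 0.414) not overlapping. Of the 8 skeletal muscle markers 4 were tested, and Myh2, Myh4 and Tnnt3 were under the filter. All 4 had lower fitted values in VO, and 2 of them did not overlap, against 12.9% of all tested genes in this direction. Ckm and Mybpc2 had an unadjusted limma p under 0.05, against 8.08% of all tested genes lower, and none passed after adjustment. The skeletal muscle sum is mostly the level of Ckm. Skeletal muscle content was not measured. The sums of the other lists in this paragraph overlapped. A sum can hide single genes: of 8 fibroblast markers 6 had higher and 2 had lower fitted values in VO. Of these, Col1a2 (log2 fold change 0.56) and Col3a1 (0.61) had an unadjusted limma p under 0.05, against 3.89% of all tested genes higher. Of 3 tested ventricular markers 1 was higher and 1 was lower at that threshold. None of these passed after adjustment.

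Connexins are held at the intercalated disc by scaffold and adhesion proteins. Of 15 tested genes of this kind, 1 was higher and 3 were lower in VO at an unadjusted p under 0.05, and none passed after adjustment. The balance moved with the scaling: 2 were higher and 1 was lower with TPM, and 2 were higher and 2 lower with quantile normalization or fragment totals. The lower genes were Des, the muscle intermediate filament (log2 fold change -0.68), Ctnna3, a catenin of the disc (-0.39), and Pkp2, a desmosomal plakophilin (-0.25), and Nov, which encodes a matricellular protein known to bind connexin 43, was higher (0.43), with limma adjusted p-values from 0.404 to 0.414. Des measured 274, 234 and 246 FPKM in sham and 112, 206 and 166 FPKM in VO. The median of the 15 was -0.03, against -0.01 for all tested genes.

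Of 11 tested partners of cardiac sodium channels, 2 were lower at an unadjusted p under 0.05, none was higher, and none passed after adjustment. Cav3, the muscle caveolin, measured 91.2, 64.5 and 60.4 FPKM in sham and 32.0, 47.2 and 39.1 FPKM in VO (log2 fold change -0.86, limma adjusted p = 0.344). Fgf12, an intracellular fibroblast growth factor homologue that binds the tail of alpha subunits, had a log2 fold change of -0.48 and a limma adjusted p of 0.406. Cav3 and Ank3 were put on the list because the study named them on these samples, so they are not independent evidence of a direction. The median of the 11 was -0.03. Over all tested genes 12.0% had an unadjusted p under 0.05, which is the background for the 4 junction genes and the 2 channel partners.

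Of 17 tested transcription factors of atrial and conduction genes, 2 were higher and 2 lower at an unadjusted p under 0.05, against 3.89% and 8.08% of all tested genes. With quantile normalization 0 were higher and 1 was lower, and with TPM 3 were higher and 1 was lower. Nkx2-5, a cardiac homeobox factor (log2 fold change -0.46), and Hopx, a homeodomain-only protein (-0.67), were lower, and Etv1, a factor of fast-conducting muscle (0.35), and Tbx18, a T-box factor of the sinus node and epicardium (0.59), were higher, with limma adjusted p-values from 0.390 to 0.414. Nkx2-5 measured 72.8, 73.5 and 61.5 FPKM in sham and 50.5, 56.8 and 44.1 FPKM in VO, without overlap. Nkx2-5 and Hopx had likewise been named by the study on these samples. The median of the 17 was 0.05.

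**Figure D5:**
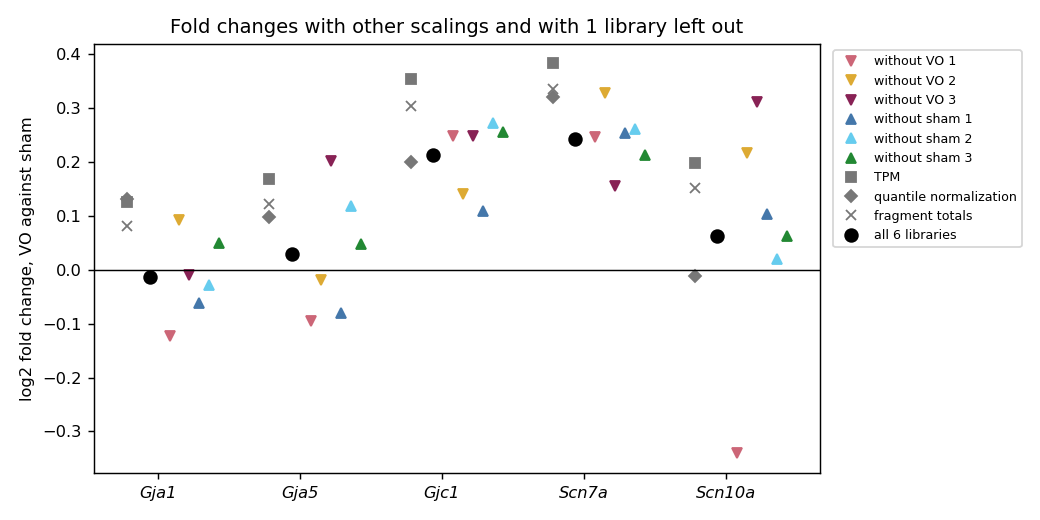
Log2 fold change of VO against sham for the 5 tested genes, with all 6 libraries (black), with other scalings (grey) and with 1 library left out (triangles). Gjc1 and Scn7a stayed above 0 in every setting shown, while Gja1, Gja5 and Scn10a took both signs.

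The tested genes whose levels ran most like those of each member over the 6 libraries are given as a description, since with 6 points many of 12627 genes come close. Gjc1 was followed most closely by Scn4a (Pearson r = 0.995), Atxn2l (0.991) and Ighmbp2 (0.991), and 34 genes had r over 0.95. Scn7a was followed by Paox (0.994), Cd1d1 (0.990) and Haus3 (0.985), Scn10a by Cyp39a1 (0.991), Rbm39 (0.982) and Usp12 (0.980), and Scn4b by Gm44509 (0.979), Scoc (0.977) and Tmem135 (0.977). For Gja1 these were Exoc6 (0.990), Fam198b (0.981) and Zfp429 (0.977), and for Gja5 Fgd1 (0.992), B230110C06Rik (0.984) and Taf4 (0.983). No gene was shared between the members' lists, and the values share depth and cell composition within each library.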

How the data were processed

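The deposited table gives FPKM per gene, with gene lengths, for 54093 complete genes. 1 incomplete last line was left out. Per the labels and the methods of the study, paired-end libraries were sequenced on a NovaSeq and the authors aligned reads with HISAT2 (2.0.5) to GRCm38 (mm10), counted them with featureCounts (1.5.0-p3) and tested with DESeq2 (1.16.1). Coordinates were identical to GENCODE M21 for 98.4% of 54059 shared genes. Read counts were recovered from FPKM and length (100.0% of values whole within 0.01). The FPKM of the libraries already had median-of-ratios factors of 1.00.

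The test was limma (3.58.1, eBayes with trend, two-sided) on log2(FPKM + 0.1) for genes averaging 1 FPKM or more, with Benjamini-Hochberg adjustment over 12627 genes. The threshold was 0.05. On this scale fold changes of low genes are understated. The test was run on simulated data with planted changes far larger than those fitted for the tested members. Whether it finds changes as small as theirs was not checked. Single values were compared by exact two-sided permutation of libraries. Poisson intervals are 95% and cover counting error only. The members and lists were chosen with earlier results of these data known. Named by rule were the members, family genes averaging 1 FPKM or more, family neighbours and the 3 most alike genes per member. List genes with an unadjusted p under 0.05 could also be named, and not all were. Some list genes were named outside this rule as examples, among them Adgre1, S100b, Dbh, Foxd3, Snap25, Chat and Notch3. 6 genes of the lists are not reported here and are left out of their counts and sums. R 4.3.3 and Python 3.11.15 were used.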

Additional observations from a re-analysis of the deposited data

How the results depend on the processing

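No tested member passed an adjusted p of 0.05 under any of the 20 alternatives, though Scn7a had an unadjusted p of 0.016 after scaling to TPM, 0.023 after scaling to fragment totals, 0.025 after quantile normalization and 0.032 without VO 2. The sign of Gja1 turned to 0.13 with TPM, 0.13 with quantile normalization and 0.080 with fragment totals. The sign of Gja5 turned with array weights (-0.11), and that of Scn10a with quantile normalization (-0.011) and array weights (-0.13). With 1 library left out, the log2 fold changes ranged from -0.12 to 0.092 for Gja1, -0.10 to 0.20 for Gja5, 0.11 to 0.27 for Gjc1, 0.16 to 0.33 for Scn7a and -0.34 to 0.31 for Scn10a. The scale of the whole library mattered: TPM moved the median of all genes from -0.01 to 0.13 and the share of unadjusted calls that were higher in VO from 32.5% to 69.1%, and fragment totals moved that share to 59.9%.

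The number of genes with an adjusted p under 0.05 was 1, and it was 2 with a pseudocount of 1, 3 with a filter of 0.1 FPKM, 3 without trend, and 0 with quantile normalization, robust eBayes, the replicate block or any library left out. The number with an unadjusted p under 0.05 was 1511, and it was 932 with the replicate block and 855 to 1998 with 1 library left out. It was 855 without sham 1 and 937 without VO 1. Same-numbered libraries did not deviate together over all tested genes (correlations -0.108, 0.011 and -0.029). With so few libraries this cannot exclude shared litters or days, which the labels do not give. The block changed no call of a member.

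The median log2 fold change of the other connexins and pannexins moved from -0.27 to 0.15 with the filter at 0.1, 0.24 with no filter, -0.13 with TPM, -0.18 with fragment totals and -0.12 with array weights, and with 1 library left out ranged from -0.41 to -0.14. That of the junction partners moved to 0.11 with TPM, 0.074 with quantile normalization and 0.066 with fragment totals, that of the sodium channel partners to 0.11 with TPM, and that of the transcription factors to -0.092 with the filter at 5 FPKM and 0.18 with TPM. Leaving out 1 library gave 2 to 4 unadjusted calls among the junction partners and among the transcription factors, and 1 to 3 among the channel partners. Of 601 values under an alternative, 525 kept their direction and either their side of the threshold or their size, 64 moved in size and 12 changed sign. The cause of these shifts was not tested. Scn4b, at 4 to 46 fragments, is limited by depth, and Scn10a could not be fitted at the filter of 5 FPKM.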
